A study of Drosophila melanogaster with 3 samples.

Results

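The 10 genes described here, of 18164 annotated genes, encode core parts of the light response of the fly eye: norpA, rdgA, rdgB, Rh5, ninaE, trp, trpl, inaD, inaC and Arr2. They were chosen by name with the summits and signal values of these peak lists already known, so which of them carried a peak in the reproducible list is a description and was not tested. All 10 symbols were found in the annotation.

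Chromatin immunoprecipitation followed by sequencing (ChIP-seq) had been done on whole adult female Drosophila melanogaster of 1 group with 3 biological replicates. All carried a stable transgene, strain bab1-RA (bab1-s)-GFP, in which the transcription factor Bab1 (Bric-a-brac 1) has GFP at its C terminus, and GFP was the target of the antibody. The age of the flies is given as unknown, and nothing in the labels says whether the replicates came from separate cultures, so spreads between them measure these 3 samples. A library of untagged flies was not used here, and in whole flies a peak present in few cells and a weak peak present in many cannot be told apart.

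In fly photoreceptors, light converts an opsin to metarhodopsin, which activates a Gq protein and then phospholipase C. The phospholipase splits a membrane phosphoinositide, and TRP and TRPL cation channels open. Arrestin ends the signal, a scaffold holds several of the proteins together, and a lipid cycle restores the phosphoinositide. These genes are best known from the retina, which is a small share of a whole fly.

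Peaks were read in 5 lists. The reproducible list, made with the irreproducible discovery rate (IDR), held 6896 peaks, and the pooled list and each replicate list held 30000. The signal value is the authors' score of each peak and ranks peaks within 1 list only, with rank 1 the strongest. A gene was counted as carrying a peak when a summit, the highest point of a peak, fell within the gene or up to 1 kb before its start. The top list of a replicate is its 6896 strongest peaks. Read counts were not used here, so depth is unknown.

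The sequences at 5 of the 8 IDR summits at these genes are printed here because they include the strongest site of norpA, rdgA and Rh5 and 3 sites that share a run of letters. Each is the plus strand of 201 bases centred on the summit, from the RefSeq release of the dm6 assembly. In the lines of rank 1543, 2412 and 2709 the capitals mark the shared letters CACNGANAG, in that of rank 10 the homeodomain core TAATTA, and in that of rank 520 the 11 bases centred on the summit.
norpA, first intron, rank 1543, X:4324129-4324329: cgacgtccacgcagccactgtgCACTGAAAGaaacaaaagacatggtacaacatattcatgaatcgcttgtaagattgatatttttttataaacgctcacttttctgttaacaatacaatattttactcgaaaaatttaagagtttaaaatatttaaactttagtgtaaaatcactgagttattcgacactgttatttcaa
norpA, first intron, rank 10, X:4324885-4325085: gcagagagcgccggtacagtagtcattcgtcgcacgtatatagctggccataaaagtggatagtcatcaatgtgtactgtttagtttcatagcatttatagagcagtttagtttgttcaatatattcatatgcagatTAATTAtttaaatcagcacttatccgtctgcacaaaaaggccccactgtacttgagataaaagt
rdgA, intron, rank 2412, X:8974315-8974515: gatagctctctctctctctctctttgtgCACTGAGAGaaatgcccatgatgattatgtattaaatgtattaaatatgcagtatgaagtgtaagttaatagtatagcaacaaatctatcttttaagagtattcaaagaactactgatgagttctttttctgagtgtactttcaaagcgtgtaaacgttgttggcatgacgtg
rdgB, intron, rank 2709, X:13764477-13764677: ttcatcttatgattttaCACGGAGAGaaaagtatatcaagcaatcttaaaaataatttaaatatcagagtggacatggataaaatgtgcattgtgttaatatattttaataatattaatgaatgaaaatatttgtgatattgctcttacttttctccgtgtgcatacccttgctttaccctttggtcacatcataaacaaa
Rh5, upstream, rank 520, 2L:12007475-12007675: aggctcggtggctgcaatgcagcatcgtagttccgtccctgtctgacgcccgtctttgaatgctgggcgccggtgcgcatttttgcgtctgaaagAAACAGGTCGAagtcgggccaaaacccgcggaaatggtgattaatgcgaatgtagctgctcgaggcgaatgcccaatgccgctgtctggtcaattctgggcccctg

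Of the 10 genes, 4 carried an IDR peak (norpA, rdgA, rdgB and Rh5), beside 37.8% of all annotated genes. The pooled list added ninaE and inaD and so held 6 of the 10, beside 60.5% of all genes. The top list held 5 of the 10 in replicate 1, beside 36.4% of all genes. It held 4 in replicate 2, beside 37%, and 4 in replicate 3, beside 36.2%. The mean over the replicates was 4.33 ± 0.577 genes (SD, n = 3). Whole lists held 5 of the 10 in replicate 1, beside 59.7% of all genes, 6 in replicate 2, beside 59.3%, and 6 in replicate 3, beside 60.4%. In each list the share of the 10 genes with a peak was thus not far from that of all genes, and with 10 genes a single one moves it by 10 percentage points. The remaining 4 genes, trp, trpl, inaC and Arr2, had no summit in any of the 5 lists.

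**Figure D1:**
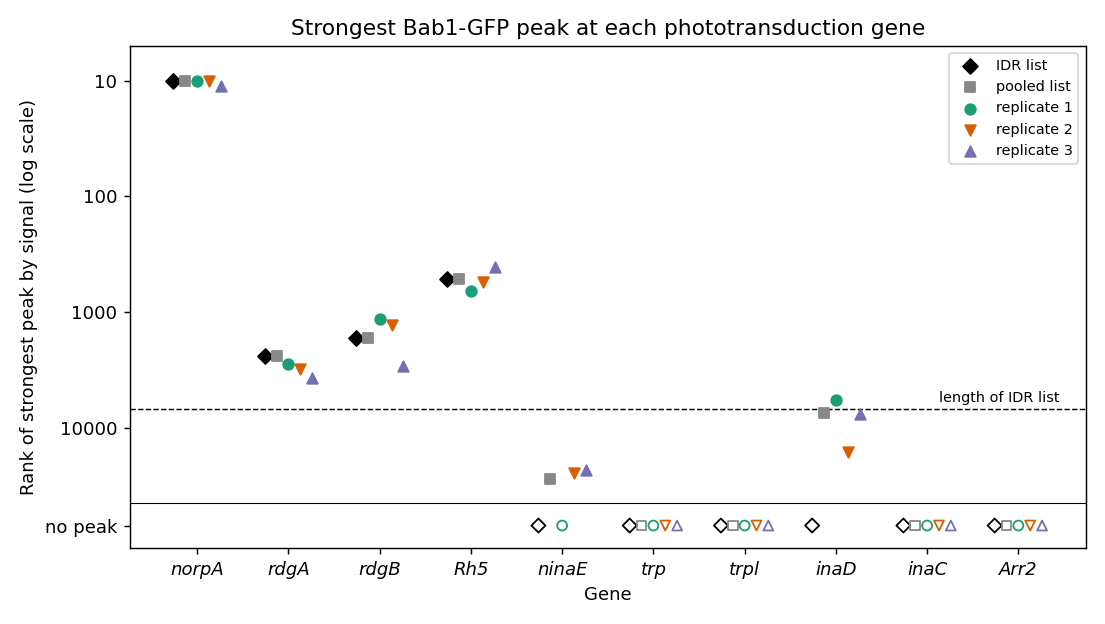
Rank by signal of the strongest peak in the region of each gene (log scale, strongest at the top) in the IDR, pooled and replicate lists; open symbols mark a list with no summit. norpA lies at rank 10 or 11 in every list, Rh5 between 405 and 662, and trp, trpl, inaC and Arr2 are open in all 5 lists.

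Among the opsins, Rh5 carried an IDR peak and ninaE did not. Rh5 (FBgn0014019, dm6 2L, 12008153 to 12009832, plus strand) encodes a blue-sensitive opsin of a subset of inner photoreceptors. Its peak spanned 12007123 to 12007851, with the summit at 12007575, 578 bp upstream of the first of its 2 transcription start sites (TSSs). The signal was 856.3 in the IDR list, at rank 520. In the replicates it was 224.9 at rank 662 in replicate 1, 423.2 at rank 545 in replicate 2 and 210.0 at rank 405 in replicate 3. All 3 replicates thus placed it in a narrow band of ranks, and their summits lay 0, 30 and 9 bp from the IDR summit. The peak was 729 bp wide, against a median of 329 bp over all IDR peaks (quartiles 205 and 424), and the pooled list gave the same region another, weaker summit at 12007778 (rank 19731, signal 82.0).

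The Rh5 peak was 1 of a run of IDR summits on both sides of this short gene. Within 5 kb outside the gene region lay 9 more, 5 before the gene and 4 after it. That many or more lay near 6 of all 18164 genes (0.0330%), Rh5 included, and the median gene had 1. The nearest one upstream had its summit at 12006729, 1424 bp before the gene, at rank 1322 with a signal of 521.5. It held ranks 4302, 724 and 4214 in replicates 1, 2 and 3. The next upstream were at 12003955, 12003756, 12003168 and 12002236, and the last lay 30 bp from the TSS of Hacd1. Past the gene end, a summit at 12010269 (rank 3176) lay 437 bp away, and 1 at 12011248 (rank 1264, signal 531.4) lay 1416 bp away, with ranks 817, 1493 and 3602 in the replicates. The last pair, at 12012048 and 12012349, were summits of 1 region. Of the 9, 4 were in all 3 top lists, 2 in 2 and 3 in 1.

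ninaE (FBgn0002940, 3R, 19886255 to 19888206, minus strand) encodes the main opsin of the outer photoreceptors. It had 1 pooled peak, with the summit at 19886346 in its 3′ untranslated region (UTR), at rank 27804 with a signal of 61.4. Replicate 2 held a peak there at rank 24435 (signal 36.8). Replicate 3 held 1 at rank 23303 (signal 22.1), farther 5′ in a coding exon, and replicate 1 held none. These are values from the weak end of the lists. The nearest IDR summit lay 5644 bp from the gene region, in the 5′ UTR of Ask1 (rank 1766). Among the other opsin genes, Rh4 had 2 IDR summits, the stronger 9 bp from the TSS of sina and 8775 bp from its own, and Rh2, Rh3, Rh6 and Rh7 had none.

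The strongest site at any of the 10 genes was in norpA (FBgn0262738, X, 4322626 to 4365408, plus strand), which encodes the phospholipase C. Its peak spanned 4324686 to 4325245, with the summit at 4324985, in the first intron and 1376 bp downstream of the TSS at 4323609. The signal in the IDR list was 4311 at rank 10, the third strongest of 1316 intronic IDR peaks and 13.5 times the median IDR signal. In the replicates the signal was 1468 at rank 10, 1916 at rank 10 and 936.0 at rank 11, for replicates 1, 2 and 3. These were 14.9, 11.6 and 11.5 times the median of each top list, so the replicates placed it alike. Their summits lay 1, 11 and 11 bp from the IDR summit, closer together than the median of 51 bp over the 3932 IDR peaks that all 3 top lists held.

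norpA carried a further pair of IDR peaks, both in all 3 top lists. One spanned 4324078 to 4324352 in the same first intron, 620 bp downstream of the TSS at 4323609, with a signal of 484.9 at rank 1543. Its ranks were 2244, 961 and 4368 in replicates 1, 2 and 3. The other spanned 4322496 to 4322725 at the promoter, with its summit 3 bp upstream of the first TSS, a signal of 298.4 and rank 3925. Its ranks were 2918, 6482 and 5426. Both therefore varied over more than a factor of 2 in rank between replicates, unlike the strongest site. The intron that holds the intronic pair is 2192 to 9640 bp long, depending on the transcript. The third TSS, at 4347918, had no IDR summit near it. The 7 other pooled peaks at norpA were outside the IDR list, and none was in all 3 whole replicate lists. The strongest of them had rank 7687. The one with its summit at 4326467 (rank 14345) lay in a peak of the replicate 1 top list, at rank 5852.

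**Figure D2:**
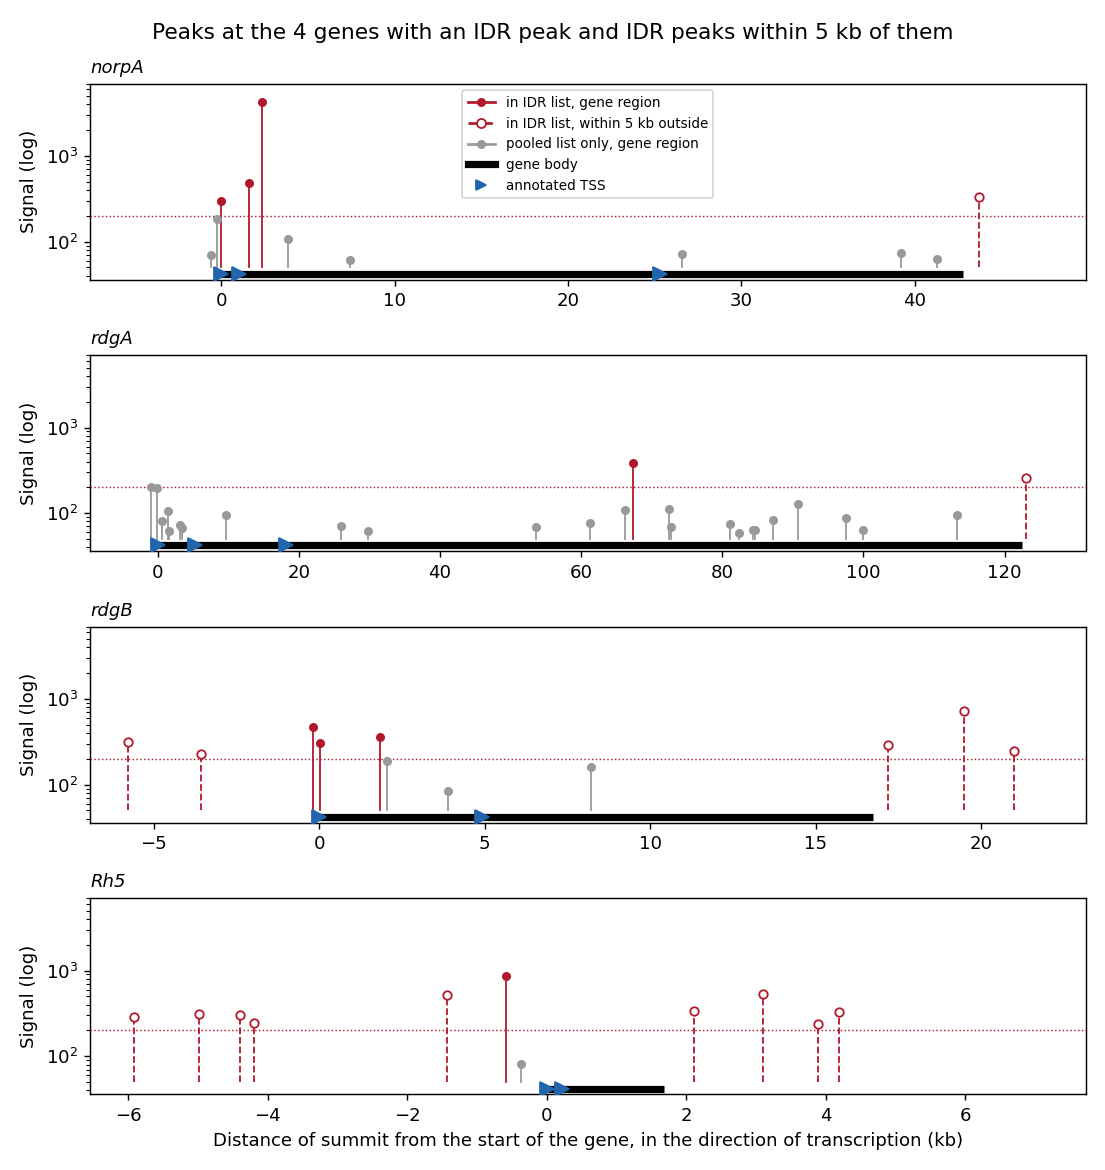
Signal in the pooled list (log scale) of each summit against its distance in kb from the start of the gene, for norpA, rdgA, rdgB and Rh5. Filled red points are IDR summits in the gene region, open red points IDR summits within 5 kb outside it, grey points peaks of the pooled list only in the gene region, and the dotted line the lowest IDR signal, 201.9. The norpA site of 4311 lies in the first intron, and Rh5 is flanked by 9 open points.

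Of the lipid cycle genes, rdgB carried 3 IDR peaks and rdgA 1. rdgB (FBgn0003218, X, 13762752 to 13779488, plus strand) encodes the phosphatidylinositol transfer protein. Its strongest peak, 13762462 to 13762646, had the summit 197 bp upstream of the first TSS, with a signal of 467.7 at rank 1660. It was found at rank 1154 (signal 167.9) in replicate 1 and rank 1294 (signal 270.9) in replicate 2, and no peak of replicate 3 contained its summit. The neighbouring peak, 13762660 to 13762927, had the summit 16 bp downstream of the same TSS (rank 3659, signal 309.3). No peak of replicate 1 contained that summit, which held rank 2038 (signal 216.1) in replicate 2 and rank 2905 (signal 88.9) in replicate 3. Each of the promoter pair was thus lacking in a different replicate, and replicate 2 held both. The third, 13764468 to 13764665, lay in the intron 1825 bp downstream of the TSS, with a signal of 364.7 at rank 2709. It was in all 3 top lists, at ranks 6196, 1626 and 5588. Within 5 kb outside the rdgB region lay 5 further IDR summits, and 169 of all genes (0.930%), rdgB included, had that many or more. The strongest of them, 65 bp from the TSS of CtsB, had rank 713. Those at ranks 3536, 5858 and 5306 were at the promoters of CG32625, Yp3 and inaE. The CG32625 and Yp3 summits were in 1 top list each, and the inaE summit is also counted under inaE below.

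rdgA (FBgn0261549, X, 8907068 to 9029476, plus strand) encodes the diacylglycerol kinase and is the longest of the 10 genes at 122 kb. Its only IDR peak, 8974367 to 8974486, lay in an intron, 49231 bp from the nearest TSS of rdgA and 160 bp upstream of the TSS of CG10962, a gene nested in it. The signal was 386.2 at rank 2412. In the replicates it was 109.3 at rank 2835, 173.9 at rank 3111 and 78.6 at rank 3685. The site was in all 3 top lists. With its 25 pooled peaks, rdgA held 2.03 per 10 kb, beside a mean of 2.25 over the genome. Of its 24 pooled peaks outside the IDR list, 37.5% were in all 3 whole replicate lists, beside 30.2% of the 23104 such peaks of the genome.

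The promoter of rdgA itself fell just outside the IDR list. Its pooled summit at 8906987, 81 bp upstream of the first TSS, had a signal of 199.1 at rank 7035, under the lowest IDR signal of 201.9. It held rank 5988 in replicate 1, rank 10572 in replicate 2 and rank 4515 in replicate 3, so 2 of the 3 top lists held it. A summit at 8906121, 127 bp from a TSS of the neighbour e(r), also lay just outside (rank 6916, signal 201.5), as did an intronic summit of rdgB at 13764789 (rank 7379, signal 191.7) and 1 at 4322345 between mRpL33 and norpA (rank 7687, signal 185.5). On the inner side of the threshold, the weakest IDR peak at any of the 10 genes was the norpA promoter peak at rank 3925.

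The light-activated channels trp (FBgn0003861, 3R, 29914521 to 29920289, minus strand) and trpl (FBgn0005614, 2R, 9753697 to 9765518, plus strand) had no summit in any list. The nearest IDR summit lay 10321 bp from trp, at the promoter of CG15517, and 40335 bp from the trpl region, at the promoter of dap. inaC (FBgn0004784, 2R, 16898535 to 16901575, plus strand), the eye protein kinase C, likewise had none, and its nearest IDR summit lay 28149 bp from its region. For the 11300 genes with no IDR summit, the quartiles of this distance were 2505, 8291 and 25884.5 bp, so those of trpl and inaC were above the upper quartile.

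inaD (FBgn0001263, 2R, 22855688 to 22858794, minus strand), the PDZ scaffold of the signalling complex, had a promoter peak below the IDR threshold. Its pooled summit at 22858988, 194 bp upstream of the TSS, had a signal of 189.0 at rank 7509. In replicate 1 it was in the top list, at rank 5764 (signal 71.5). It held rank 16325 (signal 52.6) in replicate 2 and rank 7577 (signal 50.9) in replicate 3. All 3 replicates listed the site, and their ranks spread widely. An IDR summit at the promoter of RpL23, a ribosomal protein gene, lay 1378 bp beyond the end of inaD (rank 1455, signal 499.1) and was in all 3 top lists.

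Arr2 (FBgn0000121, 3L, 8647261 to 8648936, minus strand), the main arrestin of photoreceptors, lies within Pex7 on the opposite strand and had no summit in any list. The nearest IDR summit was 3163 bp upstream of Arr2, between genes, at rank 2553 with a signal of 374.7. It held ranks 2187, 4873 and 2013 in the replicates, and its nearest TSS was that of Pex7, 2628 bp away.

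Of the 8 IDR peaks at the 10 genes, 6 were in all 3 top lists and 2 in 2, beside 3932 of 6896 (57.0%) of all IDR peaks in all 3. The IDR list was built from the same replicates, so these counts describe the list. The replicate summits lay between 0 and 57 bp from the IDR summit. Those of the intronic rdgB peak were spread over 92 bp, above the upper quartile of 85 bp over all IDR peaks held by 3 top lists, and those of the strongest norpA peak over 10 bp.

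**Figure D3:**
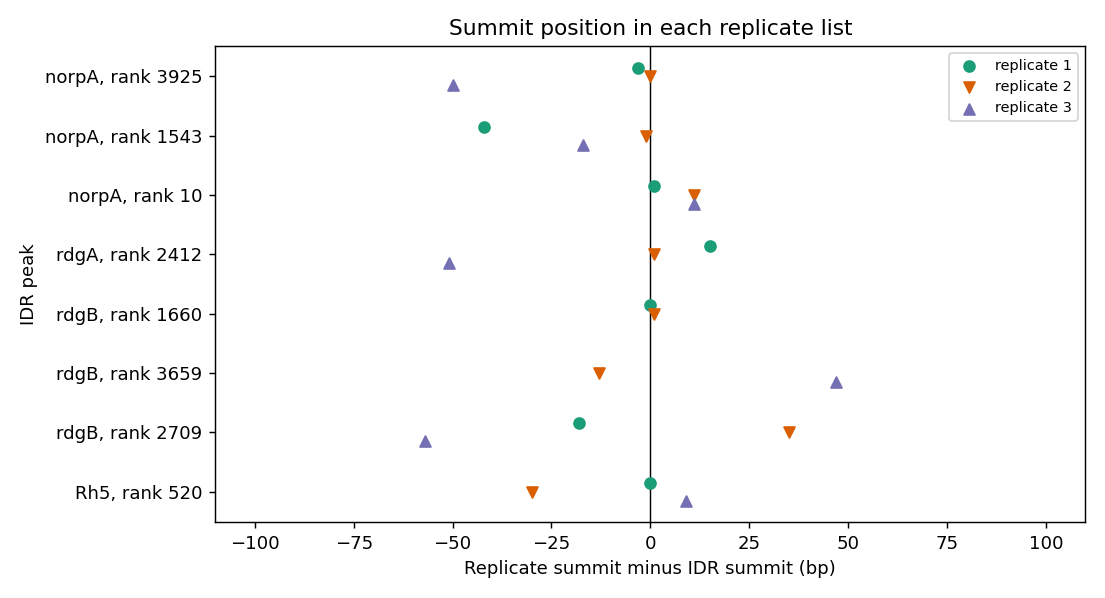
Distance in bp of each replicate's summit from the IDR summit for the 8 IDR peaks at norpA, rdgA, rdgB and Rh5, labelled by IDR rank. The 3 replicates lie within 10 bp of each other at the norpA peak of rank 10 and within 92 bp at the rdgB peak of rank 2709; the rdgB promoter pair has 2 points each.

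Gene length, which the peak lists do not hold, and chromosome are given here for the 10 genes as a description. norpA, rdgA and rdgB are in the longest of 10 equal classes of gene length, where 58.2% of genes carried an IDR summit, but so is trpl. Rh5, ninaE and Arr2 share a class of shorter genes, where 41.4% did. In the classes of inaC, inaD and trp the shares were 48.5%, 54.4% and 59.5%. All 3 genes on X carried an IDR peak, beside 42.4% of the 2813 genes there, and the gene on 2L did, beside 32.5%. None of the 3 genes on 2R did, beside 39.2%, nor did either of those on 3R, beside 38.3%, nor the gene on 3L, beside 37.3%.

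**Figure D4:**
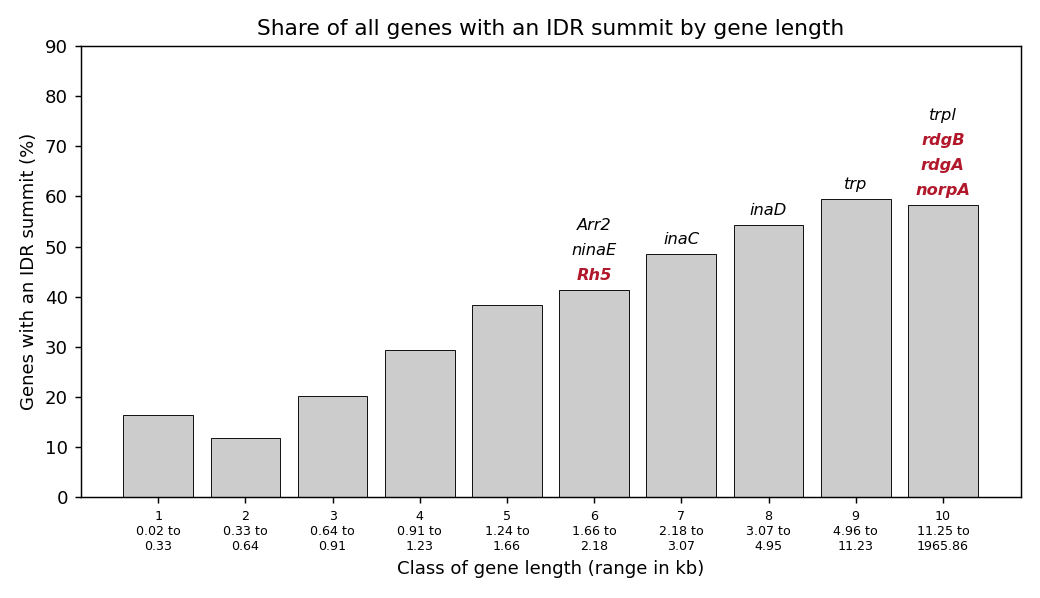
Share in percent of all annotated genes with an IDR summit, in 10 classes of gene length (range in kb under each bar). Gene names stand above the bar of their class, bold red with an IDR peak and black without; trpl shares the longest class (58.2%) with norpA, rdgA and rdgB, and ninaE and Arr2 share a class (41.4%) with Rh5.

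The sequence at the summits was mostly poor in G and C. Within 50 bp on either side of the summit, the GC content was 25.7% at the strongest norpA peak, 22.8% at the other intronic norpA peak, 24.8% at rdgA, 24.8% at the upstream rdgB peak and 20.8% at the intronic rdgB peak. It was 43.6% at the norpA promoter, 53.5% at the rdgB start and 52.5% at Rh5. The median of all IDR peaks was 38.6%, with quartiles of 30.7% and 46.5%, so 5 of the 8 lay under the lower quartile and 2 above the upper one.

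7 sets of letters were searched on both strands. The element TATCGATA, bound by the promoter factor DREF, was in 10.1% of all IDR summits and 0.877% of flanks 1000 bp away, in windows of 150 bp on either side, and in none of the 8 summits here. TAATTA was at the strongest norpA peak, where it stands in capitals above, beside 7.57% of all IDR summits within 50 bp. Within 150 bp it was also at the upstream rdgB peak, so in 2 of the 8, beside 19.7% of all. The palindromic homeodomain site is a pair of inverted TAAT sites with 3 bases between them. It was within 50 bp of the intronic rdgB summit, beside 1.20% of all. GAGAG, the element of GAGA factor, was in 6 of the 8 within 150 bp of the summit and in none within 50 bp, beside 34.8% and 11.7% of all IDR summits. The windows of the rdgB promoter pair overlap, and the same GAGAG letters were counted for each of the pair. The E box CACGTG, the bicoid-type homeodomain site TAATCC and the repeat CACACACA were in none of the 8 within 150 bp, beside 4.35%, 7.42% and 8.02% of all. Letters that match are not shown to be bound.

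The letters CACNGANAG were picked after the member sequences had been read, so their count is a description only. They were within 150 bp of 3 of the 8 summits, at norpA (rank 1543), rdgA and rdgB (rank 2709), beside 5.50% of all IDR summits, 3.07% of flanks and 3.48% of promoters. They began 78, 72 and 83 bp before the summit at these sites, and those at rdgA and rdgB contain GAGAG.

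In the promoters, the palindromic homeodomain site was searched because inverted TAAT sites are known from rhodopsin promoters of the fly. All 3 bases between them were left free, so a match is not shown to be a rhodopsin-type site. The letters were in 5 of the 16 promoters of the 10 genes, beside 2.72% of all 23998 promoters. A promoter was here 250 bp before to 50 bp after each TSS. That of the opsin gene ninaE held no exact match. Of the other searched patterns, GAGAG was in 5 of the 16, TAATTA in 3 and CACACACA in 2, beside 32.4%, 18.6% and 5.86% of all. TAATCC and CACGTG were in 1 each, beside 8.75% and 4.05%, and TATCGATA in none, beside 6.80%. The 5 promoters with the palindromic site belong to Rh5, norpA, rdgA, trp and trpl. Their sites begin 140, 59, 96, 11 and 68 bp before the TSS, in that order. None of these 5 promoters held a summit in any of the 5 lists within that window. Farther upstream, the Rh5 IDR summit lay 578 bp before the TSS, outside the window. For the rdgA promoter, a replicate 2 summit (rank 21998) lay 319 bp before the TSS. The 2 promoters with an IDR summit in the window, the first of norpA and the first of rdgB, held no such site. 4 of the sites are shown, in the direction of transcription, with the palindrome in capitals, to show how the same outer letters enclose different centres.
Rh5, 2L:12008003-12008033: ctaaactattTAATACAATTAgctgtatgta
norpA, TSS at 4347918, X:4347849-4347879: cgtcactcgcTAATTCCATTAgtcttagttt
rdgA, TSS at 8912368, X:8912262-8912292: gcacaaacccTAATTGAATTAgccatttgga
trp, minus strand, 3R:29920280-29920310: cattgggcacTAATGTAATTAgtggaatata

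Of 54 further genes in 9 lists of the same pathway and of eye biology, 19 (35.2%) carried an IDR peak, beside 37.8% of all genes. In 12 of these 19 the nearest TSS was that of the gene itself, and in 7 it was that of another gene. For all 64 genes the counts were 2 of 7 opsins, 3 of 4 genes of the G protein and phospholipase, 2 of 9 of the channels and signalling complex, 6 of 9 of the lipid cycle and 3 of 7 of termination. They were 2 of 7 of chromophore and chaperone genes, 2 of 4 of rhabdomere structure, 2 of 6 of transmitter genes and 1 of 11 eye transcription factors.

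Among the 54 further genes, the strongest peak was at a lipid cycle gene. Cds, which makes CDP-diacylglycerol, had a promoter peak 83 bp from its TSS at rank 213 (signal 1313). stmA (rank 2027, signal 422.0), the phosphatidic acid phosphatase gene laza (rank 2212, signal 403.0) and the phosphatidylinositol synthase gene Pis (rank 3099, signal 340.1) also had promoter peaks nearest their own TSS. All 4 were in all 3 top lists. PIP5K59B, Pld and Vap33 had no IDR peak.

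In the G protein, Galphaq had 2 IDR summits, the stronger at rank 5030 (signal 255.5) and in 1 top list only, and Gbeta76C had 1 at rank 1181 (signal 552.4), which was closer to the TSS of CG8765 (19 bp) than to its own (265 bp). Ggamma30A had none. Beside the channels, Trpgamma had 1 at rank 2039, 7 bp from the TSS of her and 491 bp from its own, and inaE, a diacylglycerol lipase gene, had 3, the strongest in an intron at rank 3421. ninaC, rtp and inaF-B had none. Among termination genes, the exchanger gene Calx (rank 4827), the rhodopsin phosphatase gene rdgC (rank 5709) and Cam, the calmodulin gene (rank 6059), had 1 each, and Arr1, Gprk1 and stops had none.

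Among the other lists, crb, an apical polarity gene, had 4 IDR summits, the strongest in an intron at rank 310 (signal 1105). eys had 1 at rank 2392, nearest CG9967. The chromophore genes ninaG (rank 818, nearest Sptz) and pinta (rank 6314), the histamine-gated channel gene HisCl1 (rank 2177, nearest prd1) and t (rank 5098) had 1 each. The only eye transcription factor with one was Pph13, a homeodomain gene of photoreceptors, at rank 6170 and nearest Ptth. chp, prom, ninaA, ninaB, ninaD, santa-maria, Pdh, Hdc, ort, CarT, e, ey, toy, so, eya, dac, gl, oc, sens, ss and pros had no IDR summit. Of the 54 genes, 18 had no summit in the pooled list.

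**Figure D5:**
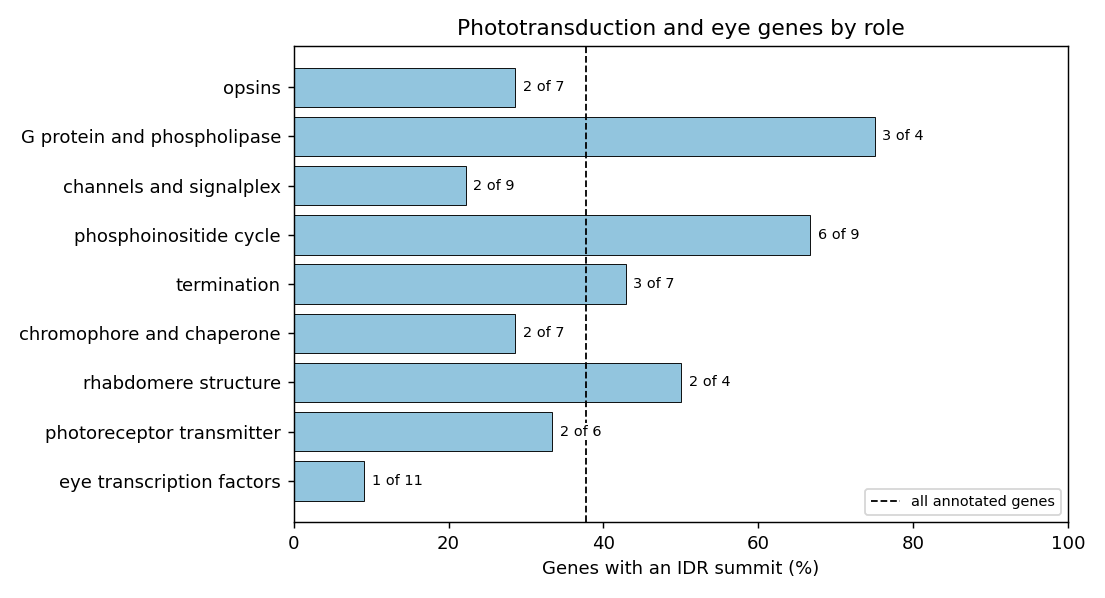
Share in percent of genes with an IDR summit in each of 9 lists of phototransduction and eye genes, the 10 genes included, with the counts beside the bars and a dashed line at the share of all annotated genes (37.8%). The G protein, lipid cycle, termination and rhabdomere structure lists lie right of the line and all the others left of it. The lists hold 4 to 11 genes.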

How the data were processed

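Peak lists of 3 replicates (1 group), their pooled reads and the IDR selection were analysed. The genes and lists were chosen with earlier results of these data known. Signal values, −log10 q values and summit offsets were deposited by the authors in the narrowPeak layout on dm6, called against 1 control library, not used here, per the deposited file listings. For the aligner, the peak caller and the IDR cutoff, names or values were not given in the sources used here. Ranks come from signal; −log10 q gave no ranks, since a large part of each list is tied at its maximum.

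Genes came from the Ensembl release 115 annotation and sequence from the RefSeq copy of the same assembly, with 1-based coordinates. Transposon genes were left out. A promoter was the 1000 bp before and the 100 bp after a TSS. For the letter search in promoters it was 250 bp before to 50 bp after. Named genes are the 10, those nearest their IDR peaks, and all genes of the 9 lists. Scripts ran in Python 3.11.15 with pandas 2.3.3, numpy 2.4.6 and matplotlib 3.10.9. The assignment of summits to genes and the letter search were checked on simulated data. The alternatives were other gene regions, lists, overlap rules and windows, and each replicate set aside. The IDR list was not made again without a replicate.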

Additional observations from a re-analysis of the deposited data

How the results depend on the processing

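The number of the 10 genes with an IDR peak (4) was 4 under any overlap of the peak and in the stronger part of the list (rank 3448 and better). Each replicate was also set aside in turn, which kept only the IDR peaks held by both other top lists. The IDR list itself still came from all 3 replicates, and the number was again 4. It was 3 for the gene body alone or with 250 bp upstream, where Rh5 dropped out, and 3 by nearest TSS, where rdgA dropped out. It was 5 with 5 kb upstream, which added Arr2, and 6 in the pooled list. The mean over replicate top lists (4.33) ran from 4 to 4.5 without each replicate. It was 5.67 in the whole replicate lists and 3.67 in the stronger part of the top lists. Of the 4 genes, 1 (rdgB) kept its strongest IDR peak when the summit had to lie within 250 bp of a TSS of the gene, and norpA then had a signal of 298.4 in place of 4311. Peaks held by all 3 top lists (6) numbered 5 to 6 under other overlap rules. With each replicate set aside they numbered 6 to 7, a count that could not fall, since 2 lists were asked for in place of 3. Of the 54 other pathway genes, 36 had a peak in the pooled list, beside 60.5% of all genes. Those with an IDR peak (19) numbered 13 for the gene body plus 250 bp upstream and 12 in the stronger part of the IDR list. They numbered 14 to 15 with each replicate set aside, a step that drops IDR peaks and so could not raise the count. Member summits with any of the 7 searched patterns numbered 2 within 50 bp of the summit and 6 within 150 bp. The cause of these changes was not tested. No paired analysis was possible because there was 1 group. With peak lists alone, absence of a summit cannot be told from a signal too weak to be listed.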
